A study of Rhodotorula toruloides with 2 samples.

Results

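Ammonium entry, the exchange between ammonium and glutamate, and ammonia release from amides were represented by 5 genes of Rhodotorula toruloides (also named Rhodosporidium toruloides), an oleaginous red yeast. They are an ammonium transporter (RHTO_01846), an NADP-dependent glutamate dehydrogenase (RHTO_04650), an NAD-dependent glutamate dehydrogenase (RHTO_07718) and 2 amidases (RHTO_06574 and RHTO_06576). The 5 genes were chosen by their KEGG and BLAST descriptions with their counts and ratios already known, out of 1402 genes in the authors' deposited table. Their ratios are therefore a description and are not tested. The study grew wild-type strain AS 2.1389 in chemostats, stirred continuous cultures of 2.0 litre, with inorganic phosphate (Pi) limiting or replete, and asked how Pi supply changes a yeast studied for its lipid storage. RNA from 40 ml of culture was sequenced as 1 library labelled Pi-limited and 1 labelled Pi-replete, called here by those labels. The labels mention no replicate culture, so the spread between cultures is unknown and every interval here covers counting error only. The nitrogen source of the medium and its concentration are not given in these sources.

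Fungi take up ammonium through membrane proteins of the Amt/Mep family. In Saccharomyces cerevisiae, an NADP-dependent glutamate dehydrogenase then joins ammonium to 2-oxoglutarate to make glutamate, which donates nitrogen to most other amino acids. An NAD-dependent enzyme runs the reaction backwards, breaking glutamate into 2-oxoglutarate and ammonium when glutamate serves as a nitrogen or carbon source. Amidases hydrolyse amides to a carboxylic acid and ammonia, and in Aspergillus such enzymes let the fungus use amides as a nitrogen or carbon source. In many fungi the genes for using poorer nitrogen sources are repressed while ammonium or glutamine is plentiful.

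The library totals were 5892590 counts for the Pi-limited-labelled library and 5641377 for the Pi-replete-labelled library. The authors' thresholds, read from the values, were at least a 2-fold difference and a false discovery rate (FDR) of at most 0.001. By the ranks contained in the FDR column, 7970 genes had been tested, so 17.6% of them were listed. The 5 genes are listed because they were picked from that table. Phosphate transporters, which fungi are known to induce when Pi is scarce, ran against the labels: 4 of 4 listed genes with such a description had fewer counts in the Pi-limited-labelled library. The largest and the smallest ratio were those of RHTO_01284, with 22 counts there against 5797, and RHTO_01549, with 23 against 750. The submitters describe the Pi-limited-labelled library as control_F3A and the other as P0A, names that do not spell out the Pi supply. Directions are given by the label a library carries. Whether the labels were exchanged was not tested, and an exchange would turn every direction given here.

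The ammonium transporter and the NADP-dependent glutamate dehydrogenase, by description genes that bring in and fix ammonium, were both more abundant in the Pi-limited-labelled library. The NAD-dependent glutamate dehydrogenase and both amidases, by description genes that release ammonium or ammonia, were all more abundant in the Pi-replete-labelled library. Other listed genes did not all follow this split. Of 13 genes matched by wording to ammonia release from amides, nitriles and urea, 9 were higher and 4 lower in the Pi-limited-labelled library. Each of the 5 genes differed at least 4-fold. Among all listed genes, 14.1% were at least 4-fold higher in the Pi-limited-labelled library and 19.8% were at least 4-fold lower there. The members were picked with these ratios in view, so nothing is read from their number. Setting the median of the listed genes to 0 would shift every log2 ratio by -1.10, which leaves each of the 5 directions in place and puts RHTO_04650 at 0.997. No gene under 2-fold is listed, so much of that shift follows from the listing. Where a pair of counts or levels follows without names, the Pi-limited-labelled library comes first.

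The ammonium transporter RHTO_01846, described as a member of the Amt family, had 352 counts in the Pi-limited-labelled library and 49 in the Pi-replete-labelled library. Its level, in RPKM (counts scaled by gene length and library total), was 33.9 (95% Poisson interval 30.4 to 37.6) and 4.92 (3.64 to 6.51), respectively. These intervals did not overlap, but genes were listed by at least a 2-fold difference between these same libraries, so nothing is read from that. The fold, 6.88 (5.09 to 9.47) in favour of the Pi-limited-labelled library, was number 90 in size of the 817 listed genes with that direction. In the Pi-replete-labelled library only 20.4% of the listed genes had a lower RPKM than this transporter, whereas in the Pi-limited-labelled library 63.98% did.

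The NADP-dependent glutamate dehydrogenase RHTO_04650 had 1281 counts in the Pi-limited-labelled library and 287 in the Pi-replete-labelled library. Its level was 156.5 RPKM (148.1 to 165.3) against 36.6 (32.5 to 41.1). It was 4.27-fold (3.76 to 4.87) higher in the Pi-limited-labelled library, the smallest fold of the 5 genes. It had the highest level of the 5 in that library, and 91.0% of listed genes lay below it there. The log2 ratio of the dehydrogenase was 2.10 and that of the transporter 2.78. Per length, RHTO_04650 stood 4.62 times (4.10 to 5.22) above the transporter in the Pi-limited-labelled library and 7.44 times (5.48 to 10.3) above it in the Pi-replete-labelled library, so the transporter had the larger relative difference of this pair (ratio of the ratios 0.621, 0.439 to 0.865).

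The NAD-dependent glutamate dehydrogenase RHTO_07718 had 537 counts in the Pi-limited-labelled library and 4812 in the Pi-replete-labelled library. Its level was 29.1 RPKM (26.7 to 31.7) against 272.3 (264.7 to 280.2). It was 9.36-fold (8.56 to 10.3) higher in the Pi-replete-labelled library and had the highest level of the 5 genes in that library. The deposited length of 3132 bases is more than that of the NADP-dependent gene, 1389 bases. KEGG gives it the NAD-dependent activity EC:1.4.1.2, while its best BLAST hit is a hypothetical protein of the basidiomycete Mixia osmundae. The cofactor of this enzyme therefore rests on the KEGG description.

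The 2 glutamate dehydrogenases changed places between the libraries. In the Pi-limited-labelled library the NADP-dependent gene was 5.38 times (4.86 to 5.96) as abundant, per length, as the NAD-dependent gene. In the Pi-replete-labelled library the NAD-dependent gene was 7.44 times (6.60 to 8.41) as abundant as the NADP-dependent gene. The ratio of the 2 genes therefore differed 40.0-fold (34.1 to 46.9) between the libraries. This ratio is taken within each library, so it does not depend on how the libraries are scaled to each other. Summed over both genes, the counts were 1818 and 5099, 2.93-fold (2.78 to 3.09) higher per library total in the Pi-replete-labelled library.

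**Figure D1:**
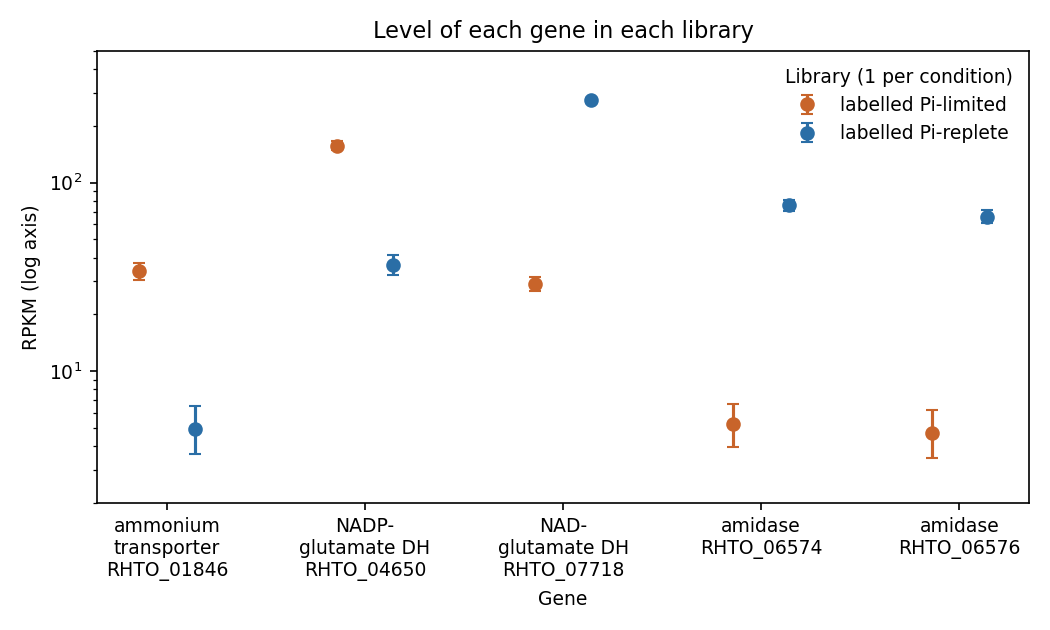
RPKM of the 5 genes on a log axis in the Pi-limited-labelled library (orange) and the Pi-replete-labelled library (blue); points are single libraries and bars are exact 95% Poisson intervals, which cover counting error only. The transporter (33.9 and 4.92 RPKM) and NADP-glutamate dehydrogenase (DH; 156.5 and 36.6) are higher in orange, while NAD-glutamate dehydrogenase (29.1 and 272.3) and both amidases are higher in blue.

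The amidase RHTO_06574 had 59 counts in the Pi-limited-labelled library and 820 in the Pi-replete-labelled library, or 5.21 RPKM (3.97 to 6.73) and 75.7 RPKM (70.6 to 81.1). The amidase RHTO_06576 had 47 and 632 counts, or 4.68 RPKM (3.44 to 6.22) and 65.7 RPKM (60.7 to 71.1). For both genes the Pi-replete-labelled library was the higher one. Their folds were 14.5 (11.1 to 19.2) and 14.0 (10.4 to 19.3), numbers 88 and 90 in size among the 585 listed genes that were lower in the Pi-limited-labelled library. The authors' deposited table gives both the KEGG description amidase EC:3.5.1.4 and the same best BLAST hit, a general amidase of Rhodotorula glutinis.

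The amidases differed little from each other. RHTO_06574 was 1.11 times (0.747 to 1.67) as abundant per length as RHTO_06576 in the Pi-limited-labelled library and 1.15 times (1.04 to 1.28) in the Pi-replete-labelled library. The ratio of the 2 genes was 0.968 times (0.639 to 1.47) that of the Pi-replete-labelled library in the Pi-limited-labelled library, an interval that holds no difference as well as a 1.47-fold difference. In the reference annotation of strain NP11 the 2 amidases lie 2 places apart, with RHTO_06575 between them, which is not analysed here. Their sequences were not compared, so whether reads are shared between them was not tested. Together they took 106 counts in the Pi-limited-labelled library and 1452 in the Pi-replete-labelled library, a 14.3-fold difference (11.7 to 17.6).

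The 5 genes together took a small share of each library. Their sum was 0.0386% of the Pi-limited-labelled library (exact 95% interval 0.0371 to 0.0402) and 0.117% of the Pi-replete-labelled library (0.114 to 0.120). In the authors' deposited table the largest FDR of the 5 genes was 7.93e-54, that of the ammonium transporter, and that of the NAD-dependent glutamate dehydrogenase is listed as 0. That FDR compares these 2 libraries and holds no spread between cultures.

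**Figure D2:**
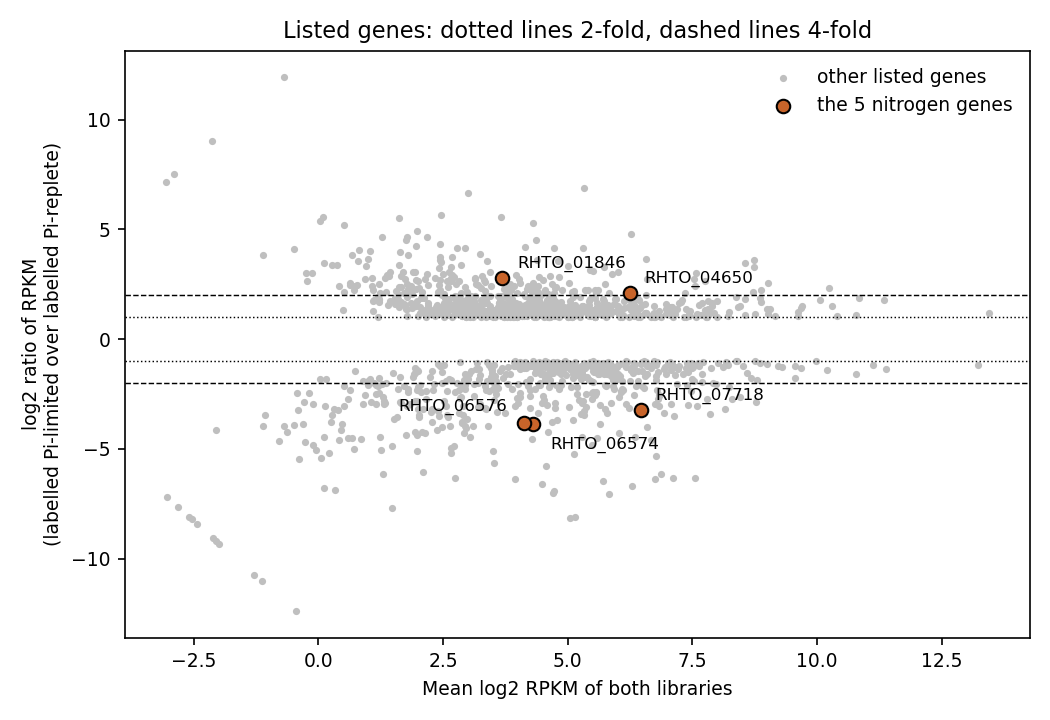
Log2 ratio of RPKM (labelled Pi-limited over labelled Pi-replete) against mean log2 RPKM for the 1402 listed genes (grey points) and the 5 nitrogen genes (orange points, named). Dotted lines mark 2-fold and dashed lines 4-fold; the ammonium transporter (2.78) and NADP-dependent dehydrogenase (2.10) lie above the upper dashed line and the other 3 genes below the lower one.

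Other listed genes of nitrogen metabolism were gathered in 7 lists by wording, which held 68 genes with the 5 nitrogen genes and 63 without them. Of the 63, 30 were higher and 33 lower in the Pi-limited-labelled library, with a median log2 ratio of -1.01. With the members included, 32 and 36 became 32 and 27 at 2-fold or more when both libraries were given equal totals over the listed genes. Over all listed genes 58.3% were higher and 41.7% lower there, with a median log2 ratio of 1.10. The listing itself removes all ratios under 2-fold, so a median near 1 or -1 lies close to the threshold. Among the 63 genes, 8 were at least 4-fold higher and 17 at least 4-fold lower in the Pi-limited-labelled library. The list for ammonium uptake and assimilation held only the transporter and the 2 dehydrogenases. Glutamine synthetase and glutamate synthase, the other route from ammonium to glutamate, matched no listed gene and are not analysed here.

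The list matched by wording to ammonia release from amides, nitriles and urea had 9 genes higher and 4 lower in the Pi-limited-labelled library. This became 2 higher and 3 lower among genes at 4-fold or more and 1 and 4 after median centring. Among its genes with at most 1 KEGG entry the split was 4 and 4. The lower ones were the 2 amidases, another amidase and an asparaginase. Not every higher gene is known to release ammonia. By KEGG, RHTO_07095 is a cyanide hydratase, while its best hit is a nitrilase. RHTO_06241 holds nitrilase among several KEGG entries. Both were named with their values in view. The asparaginase RHTO_01855, which releases ammonia from asparagine, had 2 counts against 61 in the Pi-replete-labelled library, a fold of 31.9 (8.45 to 269). The other amidase, RHTO_03864, named with its values in view, had 32 and 87 counts, a 2.84-fold difference (1.87 to 4.40) with the same direction. These 3 amidases are the listed genes whose KEGG description is amidase alone. The amidase entry was also among several KEGG entries for RHTO_02266, RHTO_04512 and RHTO_06830, which were higher in the Pi-limited-labelled library and were named with their values in view. Urease (RHTO_05516), which splits urea into ammonia and carbon dioxide, and a urease accessory protein (RHTO_07523) had the direction opposite to the 2 amidases. Urease had 189 and 80 counts, a 2.26-fold difference (1.73 to 2.98), and the accessory protein 193 and 89. A glutaminase (RHTO_00983), which releases ammonia from glutamine, had 93 and 21 counts and also ran opposite to the amidases (4.24-fold, 2.62 to 7.17). Urease, its accessory protein and the glutaminase were named with their values in view.

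In the list for nitrate, nitrite and purine breakdown, 2 genes had the direction of the ammonium transporter and 10 that of the amidases (median log2 ratio -3.00). The split was 2 and 3 among genes with at most 1 KEGG entry, 1 and 3 at 100 counts or more, and 1 and 1 by BLAST descriptions alone. Both of the former, named with their values in view, are described as enzymes of the reduction of nitrate to ammonium. RHTO_06480 is by KEGG the nitrite reductase large subunit, of the step that yields ammonium, while its best hit is a hypothetical protein. It had 879 and 304 counts and was 2.77-fold (2.43 to 3.16) higher in the Pi-limited-labelled library. A gene whose best hit is a nitrate reductase (RHTO_06295) had 68 and 11 counts (5.92-fold, 3.11 to 12.4, in the same direction). The nitrate genes did not all share that direction: a nitrate/nitrite transporter by KEGG (RHTO_04837), named with its values in view, had 8 and 59 counts and was 7.70-fold (3.67 to 18.7) higher in the Pi-replete-labelled library. Of the 10 others, 8 carry the KEGG entry allantoate permease, a transporter for a product of purine breakdown. Among these, RHTO_07802 had 1 and 112 counts (117-fold, 20.6 to 4662) and RHTO_06763 had 8 and 90 counts (11.8-fold, 5.72 to 28.0). Of these 8 genes, 7 carry other, unrelated KEGG entries as well, so what they transport is not known here. A nitronate monooxygenase (RHTO_04275), which oxidises nitroalkanes, was 10.4-fold (6.79 to 16.8) higher in the Pi-replete-labelled library.

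**Figure D3:**
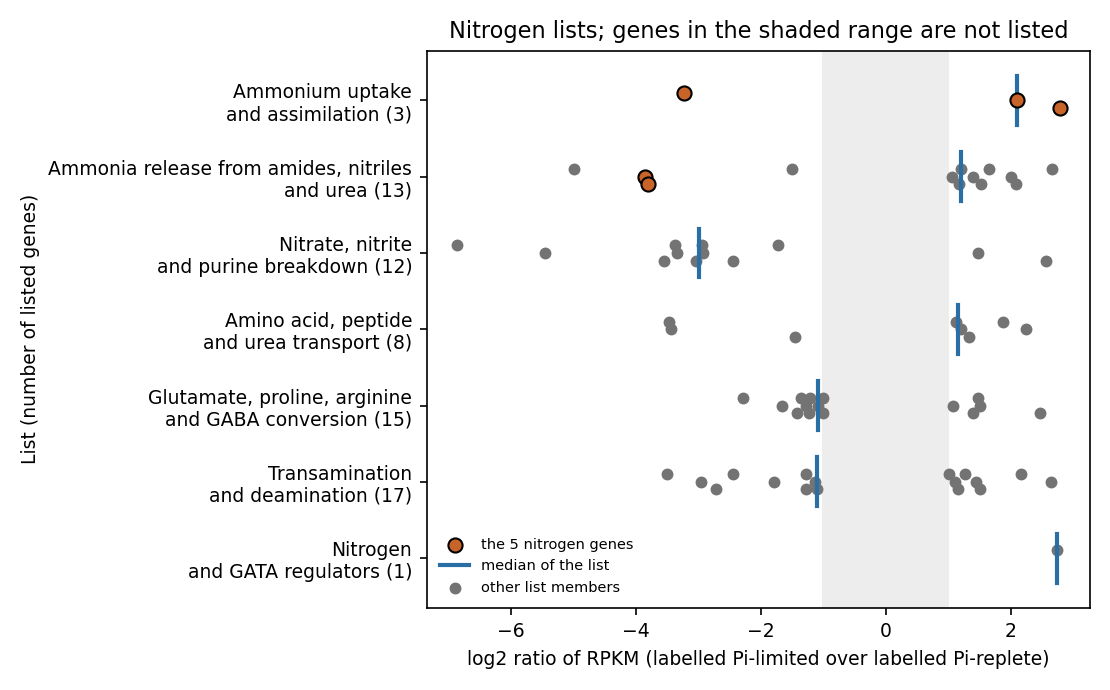
Log2 ratio of RPKM (labelled Pi-limited over labelled Pi-replete) of every listed gene in the 7 nitrogen lists, with the 5 nitrogen genes in orange, other genes in grey and the median of a list as a blue bar; the shaded range under 2-fold holds no listed gene. The 2 amidases lie at -3.86 and -3.81, while 9 of 13 genes of their list lie to the right of the shaded range. Among genes of that list with at most 1 KEGG entry, 4 lie to the right and 4 to the left.

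The list matched by wording to the conversion of glutamate, proline, arginine and gamma-aminobutyrate (GABA) had 5 genes higher and 10 lower in the Pi-limited-labelled library (median log2 ratio -1.10). At 2-fold or more, median centring left 1 and 10 and equal totals left 5 and 4, and at 4-fold or more the split was 1 and 1. Of the 5 higher genes, RHTO_03593 is described as a GABA transporter and RHTO_01732 by KEGG as a subunit of 3-methylcrotonyl-CoA carboxylase, so neither is known to convert these compounds; both were named with their values in view. The 10 had the direction of the NAD-dependent glutamate dehydrogenase, with smaller folds. Of the 10, RHTO_05472 is described by KEGG as an L-ornithine N5-oxygenase, which names none of the compounds of this list. It was named with its values in view. A 1-pyrroline-5-carboxylate dehydrogenase (RHTO_07378), which makes glutamate in proline breakdown, had 367 and 1110 counts and was 3.16-fold (2.81 to 3.56) higher in the Pi-replete-labelled library. Arginase (RHTO_05160, 2.57-fold, 2.32 to 2.85) and proline dehydrogenase (RHTO_08032, 2.14-fold, 1.58 to 2.91), which act upstream of it, had the same direction and were named with their values in view. By KEGG, RHTO_04703, RHTO_05147, RHTO_06321 and RHTO_06326 belong to carbamoyl phosphate and arginine synthesis. These 4 genes, grouped with their values in view, had that direction too, with folds of 2.01 to 2.69. Another enzyme of arginine synthesis, acetylornithine deacetylase, is among several KEGG entries of RHTO_04754, named with its values in view. RHTO_04754 ran the other way, with 29 and 5 counts (5.55-fold, 2.13 to 18.4), so genes with entries of arginine synthesis were divided. A succinate-semialdehyde dehydrogenase by its best hit (RHTO_00119), an enzyme of GABA use, was 4.87-fold (2.76 to 9.17) higher in the Pi-replete-labelled library. Glutamate decarboxylase, which makes GABA from glutamate, ran the other way: RHTO_03701 had 288 and 97 counts (2.84-fold, 2.25 to 3.62).

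Enzymes that move or remove amino groups were divided, with 8 higher and 9 lower in the Pi-limited-labelled library (median log2 ratio -1.10). The split was 8 and 5 with equal totals, and 2 and 9 at 2-fold or more after median centring. An aromatic amino acid aminotransferase (RHTO_07034) had 391 and 4242 counts, a fold of 11.3 (10.2 to 12.6) that is near that of the NAD-dependent glutamate dehydrogenase. A primary-amine oxidase (RHTO_06618) was 7.78-fold (4.74 to 13.5) higher in the Pi-replete-labelled library, and a gene with the entries kynurenine aminotransferase and alanine transaminase (RHTO_06974) was 6.26-fold (3.47 to 12.2) higher in the Pi-limited-labelled library. Transporters of amino acids, peptides and choline gave 5 higher and 3 lower (median log2 ratio 1.16), or 1 and 2 at 4-fold or more and 1 and 3 after median centring. An amino acid permease (RHTO_01079) and a peptide transporter (RHTO_01356) had their higher level in the Pi-replete-labelled library, with folds of 11.1 (6.89 to 18.7) and 10.8 (7.47 to 16.2). A gene described as a choline transporter and, by KEGG, as an aquaporin (RHTO_05974) was 4.75-fold (4.10 to 5.54) higher in the Pi-limited-labelled library. The list for nitrogen and GATA regulators held 1 gene, RHTO_00162, whose best hit is an NmrA-like family protein. NmrA of Aspergillus and its Neurospora counterpart repress nitrogen catabolic genes, but whether RHTO_00162 does so is not known here. RHTO_00162 had 28 counts against 4 in the Pi-replete-labelled library (6.70-fold, 2.34 to 26.3) and is named as the only gene of its list.

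The genes nearest to each nitrogen gene in level were found by the distance of log2 RPKM over the 2 libraries, among 1162 other listed genes that had a best hit and reached 50 counts in either library. With 2 libraries this likeness says only that both levels are alike. Closest to the ammonium transporter, at a distance of 0.0070, was a mitochondrial carnitine/acylcarnitine carrier (RHTO_06483, 34.0 and 4.94 RPKM), followed by RHTO_06801, described as a sugar permease, and RHTO_07724, a 2-haloacid dehalogenase. The NADP-dependent dehydrogenase was closest to a priA-like protein (RHTO_07243, distance 0.226), RHTO_03318 and an amino acid transporter (RHTO_07915, 157.9 and 43.0 RPKM). The NAD-dependent dehydrogenase was closest to an ATP-binding cassette transporter (RHTO_00748, 39.2 and 298.8 RPKM, distance 0.449). Malate synthase of the glyoxylate cycle (RHTO_01459, 25.7 and 202.4 RPKM, distance 0.464) and cystathionine gamma-lyase (RHTO_01498) came next. The amidases shared RHTO_04860, a transporter of the major facilitator superfamily with 6.65 and 68.2 RPKM, and RHTO_03597. The third gene was RHTO_03809 for RHTO_06574 and RHTO_05656, a monocarboxylate transporter by its best hit, for RHTO_06576.

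Neighbouring genes were read from the order of the reference annotation, within 3 places of each of the 5 genes. Of 25 other genes at these places, 5 (20.0%) were listed, against 17.6% of all genes tested. None of the 6 genes around the NAD-dependent dehydrogenase was listed. The NADP-dependent dehydrogenase differed in that the next 3 genes on 1 side were all listed with its direction. RHTO_04651, whose best hit is a proteophosphoglycan, had 129 counts in the Pi-limited-labelled library and 16 in the other (7.72-fold, 4.58 to 13.9). RHTO_04652 had 227 and 56 counts (3.88-fold, 2.89 to 5.30) and RHTO_04653 had 103 and 30 counts (3.29-fold, 2.17 to 5.12). Neither has a described function in the authors' deposited table. At 2 places from the ammonium transporter, RHTO_01848, with a monocarboxylate transporter as best hit, had the direction opposite to that gene. It was 2.35-fold (1.87 to 2.96) higher in the Pi-replete-labelled library. At 3 places from the amidase RHTO_06574, an ethanolaminephosphotransferase (RHTO_06571) was 2.60-fold (2.12 to 3.19) higher in the Pi-limited-labelled library, opposite to the amidase.

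**Figure D4:**
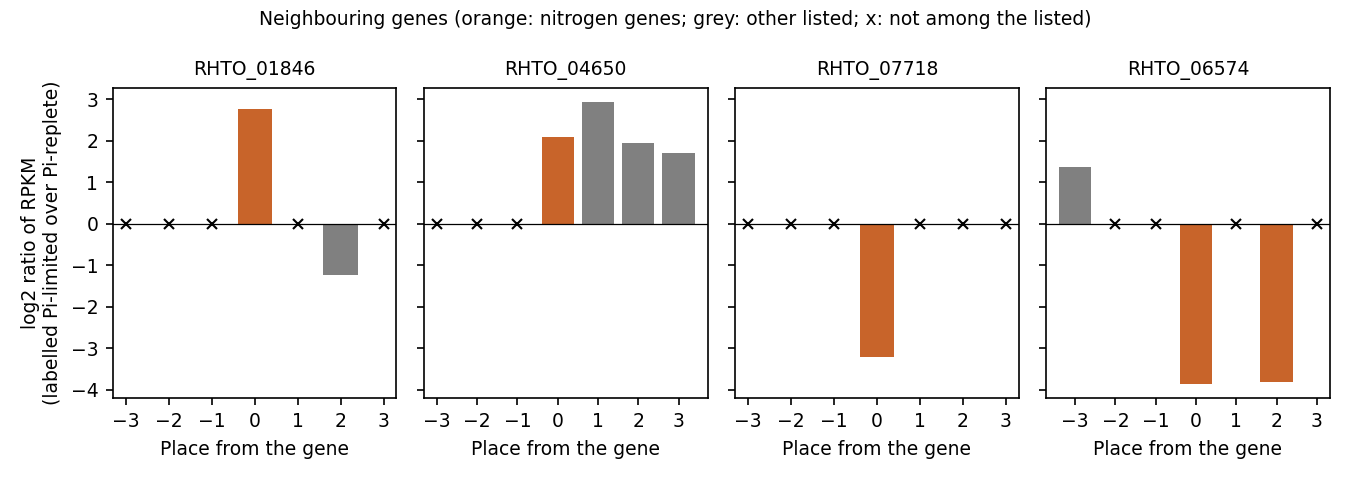
Log2 ratio of RPKM (labelled Pi-limited over labelled Pi-replete) of genes within 3 places of a nitrogen gene in the reference order; orange bars are nitrogen genes, grey bars other listed genes, and a cross marks a gene that is not listed, for which no ratio is shown. The NADP-dependent dehydrogenase RHTO_04650 is followed by 3 listed genes with its direction, and RHTO_06574 and RHTO_06576 lie 2 places apart.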

How the data were processed

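RNA sequencing gave 1 library per condition, and both were read from 1 table. Per the file headers it gives the deposited count per gene, the authors' RPKM, their log2 ratio, p-value and FDR, and BLAST and KEGG descriptions. The submitters' processing notes name Cufflinks and DESeq with no role or version; the aligner, build and strand setting are not given in the sources read. Library totals were recovered from count, length and RPKM. Lengths divide by 3 for 99.4% of genes and are thus coding lengths. Overlapping or antisense genes and near-identical copies may share reads.

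Folds of counts per library total were given with exact 95% Clopper-Pearson intervals, and levels with exact Poisson intervals (scipy 1.17.1, Python 3.11.15). Their code was checked on simulated Poisson counts, the model these intervals assume, so the check says nothing of spread between cultures. No p-value was computed, since 1 library per condition gives no spread. The 5 genes and 8 lists were chosen with earlier results of these data known. Species names were removed before matching, after 1 list had matched a species name. Named genes were the 5 genes, the 3 nearest in level to each, and the 3 list genes with the largest log2 ratio and at least 50 counts. Listed neighbours within 3 places and the phosphate transporters with the largest and the smallest ratio were named too. Genes outside this rule are marked where named. Gene order came from the RHOziaDV1.0 annotation (strain NP11), which holds all 1402 identifiers; nothing else was taken from it. No sequence was compared.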

Additional observations from a re-analysis of the deposited data

How the results depend on the processing

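Each of the 5 genes kept its direction under every scaling and pseudocount tried. Median centring on the listed genes shifted every log2 ratio by -1.10 and gave 1.68 for RHTO_01846, 0.997 for RHTO_04650, -4.33 for RHTO_07718, -4.96 for RHTO_06574 and -4.91 for RHTO_06576. Median-of-ratios size factors gave 1.68, 0.992, -4.33, -4.96 and -4.92 in the same order. Under both, RHTO_04650 was just under 2-fold. Both scalings used only the listed genes, none of which differed by less than 2-fold. Much of either shift therefore follows from the listing, and neither tests whether a gene differs 2-fold. Equal totals over the listed genes (a shift of 0.31) gave 2.41 for RHTO_04650 and -2.92 for RHTO_07718, and the other 3 genes stayed within their counting interval, as all 5 did with a pseudocount. The log2 ratio of NADP- over NAD-dependent dehydrogenase, 2.43 and -2.89 per length, was 1.25 and -4.07 in counts not divided by length. The 7 nitrogen lists held 32 genes higher and 36 lower in the Pi-limited-labelled library. This became 21 and 23 at 100 counts or more, 18 and 27 at an FDR of at most 1e-10, 10 and 20 at 4-fold or more, and 14 and 19 by BLAST alone. Median centring left 8 and 36 at 2-fold or more, and equal totals turned the balance to 32 and 27; a shift can only remove genes of 1 direction, so the count of the other stays by construction. With at most 1 KEGG entry, added after the data were seen, the split was 24 and 25. The nitrate, nitrite and purine list, 2 and 10, gave 2 and 3 with at most 1 KEGG entry and 1 and 1 by BLAST alone. The ammonia release list turned to 2 higher and 3 lower at 4-fold or more, to 2 and 4 by BLAST alone and to 1 and 4 after median centring. It was 4 and 4 with at most 1 KEGG entry. The transport list turned to 1 and 2 at 4-fold or more and to 1 and 3 after median centring. With equal totals the glutamate, proline, arginine and GABA list turned to 5 and 4 and the transamination list to 8 and 5, or 7 and 6 by KEGG alone. No paired analysis was possible because each condition has 1 library, and leaving out a replicate was not possible for the same reason. The counts of 47 and 49 in the lower library set the width of the amidase and transporter intervals.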

Other observations

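In the reference order, the NADP-dependent glutamate dehydrogenase RHTO_04650 and the 3 genes after it formed the only run of 4 adjacent listed genes that shared a direction. No longer run was found among the 1402 listed genes, and 20 runs had 3 genes. The Pi-limited-labelled library was the higher one for all 4 genes. The annotation used is that of strain NP11 and not of the strain sequenced, and whether the run has to do with gene order was not tested.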
